A study of Mus musculus with 12 samples.

Results

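The clustered protocadherin genes were read from the called regions of 2 methylation assays of P21 mouse retina. Members were the protein-coding genes of chromosome 18 whose symbol begins with Pcdha, Pcdhb or Pcdhg in the GENCODE M21 annotation of mm10. This gave 57 of 21938 protein-coding genes, with 14 in the α cluster, 22 in the β cluster and 21 in the γ cluster. A called region was assigned to a cluster when it overlapped a member with 1 kb on each side. The annotation gives the symbol Pcdha11 to 2 genes, which are told apart here by their Ensembl identifiers ENSMUSG00000007440 and ENSMUSG00000102206. Pcdhgb8, annotated as a polymorphic pseudogene, is not a member.

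Clustered protocadherins are neuronal cell-surface proteins of the cadherin superfamily. Each neuron transcribes a small set of them from alternative promoters, and the resulting surface identity lets branches of the same cell recognise and avoid each other, as described for starburst amacrine cells of the retina. In the α and γ clusters a large variable exon with its own promoter codes for the extracellular, transmembrane and proximal cytoplasmic parts and is spliced to 3 constant exons shared by the whole cluster, whereas a β gene has no constant exons. CpG methylation of the variable exon promoters and binding of the insulator protein CTCF are known to bear on which promoter is used, and the C-type genes Pcdhac1, Pcdhac2, Pcdhgc3, Pcdhgc4 and Pcdhgc5 are regulated differently from the alternate genes.

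WGBS does not separate 5mC from 5hmC, so its level is their sum, and bACE-seq reads 5hmC alone. Each assay had 3 Cre- libraries, labelled WT, from age-matched offspring of Cre- breeders, and 3 Tet tcKO libraries, in which floxed Tet1, Tet2 and Tet3 were recombined in retinal progenitors by the Chx10-Cre-GFP transgene, all on C57 BL/6J and all from whole retina at 21 days. The transgene acts as a mosaic, and animals that carried it were in-crossed to limit this, so Tet tcKO tissue can hold cells that kept a Tet allele. A level is a share of the cytosines of all cells in the tissue, so a change within cells and a change in the mixture of cells cannot be told apart. The lists hold no expression values, and the tissue label was not checked against cell markers here.

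The lists comprised 193836 WGBS and 592906 bACE-seq regions, each with 1 mean per group. They hold no per-library values and no coverage, so the depth is unknown, levels have no error, and no difference below was tested beyond the authors' own region calling. Groups follow the order in the list names, Cre- first. CpGs outside a called region have no level here and may or may not have changed. Levels are given as percent of cytosines, differences in percentage points, with the Cre- level subtracted from the Tet tcKO level, and the share kept is the Tet tcKO level as a percent of the Cre- level.

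At the 3 clusters the 5hmC regions were all lower in Tet tcKO, and the WGBS regions were nearly all higher. Both whole lists ran the same way, with 592697 of 592906 bACE-seq regions lower and 191164 of 193836 WGBS regions higher. The 177 bACE-seq regions, each weighted by its CpGs, averaged 8.46% in Cre- and 1.89% in Tet tcKO. Over the whole bACE-seq list the same levels were 16.1% and 3.87%, so the called regions of the clusters started from a lower 5hmC level on average. This did not hold throughout, since regions downstream of the last alternate exon were at 14.1% in α and 16.5% in γ in Cre-. Over all 3 clusters the share kept was 22.3%, against 24.0% over the list, as deposited. It was 13.6% against 19.1% with 1 percentage point subtracted from both groups for unconverted cytosines, and 9.69% against 14.1% with 2 points. Levels that fell below 0 on subtraction were set to 0. The paper put the unmodified cytosines that escaped conversion in bACE-seq at about 2%. The likeness of the share kept to that of the list therefore depends on the low levels being exact. There were 47 WGBS regions, of which 45 were higher and 2 were lower in Tet tcKO. Their levels were 44.2% and 56.9%, a difference of 12.7 points, beside 56.8%, 73.8% and 17.0 points over the whole WGBS list.

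**Figure D1:**
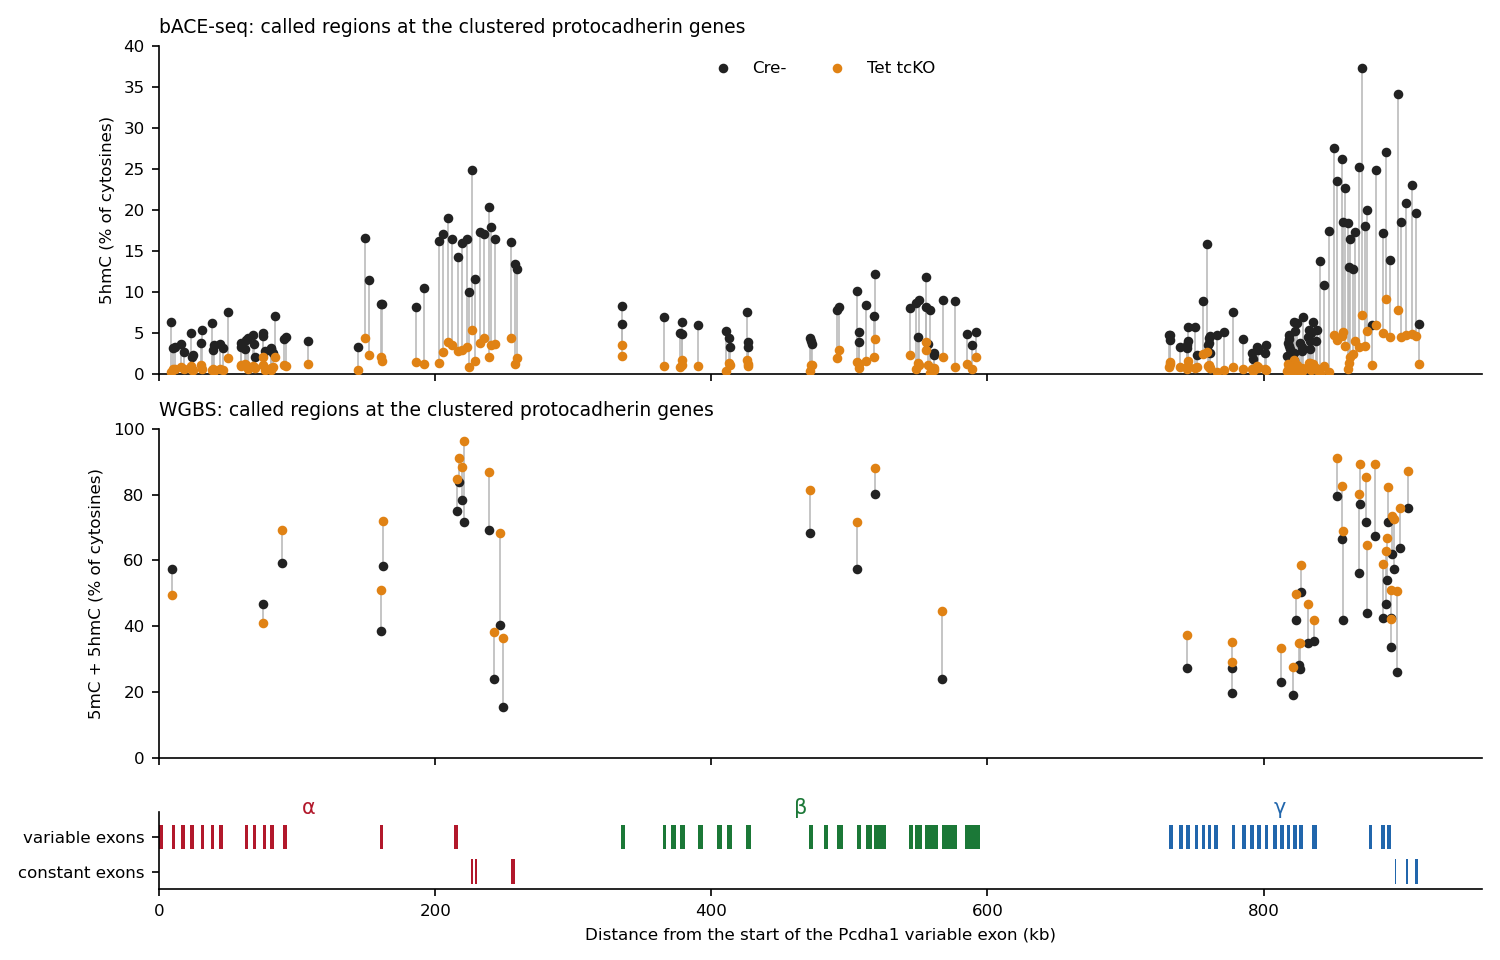
Level of each called region (percent of cytosines, y axes) against distance from the start of the Pcdha1 variable exon (kb, x axis), for bACE-seq (top, 177 regions) and WGBS (middle, 47 regions). Black points are Cre- means, orange points are Tet tcKO means, grey lines join the means of a region, and the lower track shows the variable and constant exons of the α, β and γ clusters (constant exons are drawn at least 1.2 kb wide). The highest black 5hmC points lie at the right-hand ends of the α and γ clusters, where most WGBS regions lie too.

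The number of regions differed between the clusters. The α cluster held 59 bACE-seq regions, which went from 7.64% to 1.56%, and 13 WGBS regions, which went from 48.9% to 63.0%. The β cluster held 39 bACE-seq regions, at 6.15% and 1.58%, and only 4 WGBS regions, at 56.1% and 70.5%. The γ cluster held 79 bACE-seq regions, at 9.75% and 2.21%, and 30 WGBS regions, at 41.8% and 53.9%. The share of 5hmC kept was 20.4% in α, 25.7% in β and 22.7% in γ, a range that cannot be set against a spread between libraries.

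Counted by gene with its flank, 54 of 57 members met a 5hmC loss, beside 85.3% of all protein-coding genes, and 39 of 57 met a WGBS gain, beside 70.6%. The WGBS count was uneven, with 14 of 14 α members, 4 of 22 β members and 21 of 21 γ members. Members of α and γ run from their own variable exon through to the shared constant exons, so 1 region at that end is counted for every gene of the cluster. A WGBS loss was met by 10 of 57 members, all in α, beside 4.18% of all genes, and this count came from 2 regions inside nested genes. No member met a 5hmC gain, beside 0.356% of all genes.

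Counted by variable exon, which is not shared, the picture was narrower. A 5hmC loss lay in 51 of 57 variable exons, 13 in α, 19 in β and 19 in γ. Exons with at least 2 kb of coding sequence in other genes served as the reference here, because variable exons are unusually long coding exons, and 80.8% of these 686 exons met a 5hmC loss. A WGBS gain lay in 14 of 57 variable exons, 2 in α, 4 in β and 8 in γ, beside 37.6% of the long coding exons. A WGBS loss lay in 2 of 57, beside 0.729%. The other 41 variable exons met no WGBS region.

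In the α cluster, none of the 12 alternate variable exons met a WGBS gain. The exceptions to the absence of WGBS regions were 2 short losses just downstream of exon starts. In Pcdha2 the region chr18:36939380-36939461, which starts 175 bp into the variable exon and holds 7 CpGs, was at 57.5% in Cre- and 49.4% in Tet tcKO. In Pcdha11 (ENSMUSG00000007440) the region chr18:37005522-37005592, which starts 319 bp into the exon and holds 5 CpGs, was at 46.9% and 41.0%. Both losses rest on few CpGs and are the only WGBS regions in these exons. Pcdha1, Pcdha3, Pcdha4, Pcdha5, Pcdha6, Pcdha7, Pcdha8, Pcdha9, Pcdha11 (ENSMUSG00000102206) and Pcdha12 met none.

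5hmC in the alternate α exons was low and even. Over the 11 exons with a 5hmC loss the Cre- level lay between 2.99% and 4.51%, with a median of 3.83%, and the Tet tcKO level between 0.594% and 1.15%. The lowest Cre- levels belonged to Pcdha11 (ENSMUSG00000102206) at 2.99%, Pcdha3 at 3.31% and Pcdha2 at 3.45%, whose Tet tcKO levels were 0.651%, 0.777% and 0.594%. Among alternate exons the highest was Pcdha12, at 4.51% and 1.08%, where 97.8% of the exon's 134 CpGs lay in a 5hmC loss. Pcdha1, the most upstream gene, was the one α member whose variable exon met no 5hmC region.

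The β genes, each with a variable exon of its own and no constant exon, varied more among themselves. Over 19 exons with a 5hmC loss the Cre- level ran from 2.51% to 10.7%, with a median of 6.11%, and the Tet tcKO level from 0.669% to 3.70%. Pcdhb14 was highest, at 10.7% and 3.70%. Pcdhb19 followed at 9.01% and 2.10%, and Pcdhb20 at 8.95% and 0.915%. The lowest were Pcdhb18, at 2.51% and 0.669%, Pcdhb7, at 3.75% and 1.26%, and Pcdhb9, at 4.04% and 0.976%. No 5hmC region lay in Pcdhb3, Pcdhb6 or Pcdhb10. The share kept ran from 10.2% in Pcdhb20 to 40.1% in Pcdhb1, a wider range than in the alternate α exons, where it ran from 14.7% to 31.4%. The β range is over 19 exons and its ends rest on 7 and 17 CpGs. The α range is over 11 exons and its ends rest on 84 and 32 CpGs.

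WGBS gains in the β cluster were few and small in extent, each of them the only WGBS region of its exon. In Pcdhb19 the region chr18:37496929-37497091 spans the exon start and was at 23.8% in Cre- and 44.5% in Tet tcKO. In Pcdhb12 the region chr18:37435550-37435922 also spans the exon start and was at 57.4% and 71.6%. Inside the exons, Pcdhb9 was at 68.3% and 81.4% and Pcdhb14 at 80.3% and 88.0%. The rise of Pcdhb19 was the largest of any variable exon in the 3 clusters, at 20.7 points, but rests on 4 CpGs of the exon. The remaining 18 β variable exons met no WGBS region.

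In the γ cluster the alternate exons resembled the α exons in 5hmC but not in WGBS. Cre- 5hmC lay between 2.45% and 8.90% over 16 alternate exons, with a median of 4.23%, and Tet tcKO 5hmC between 0.271% and 2.51%. Pcdhgb4 was lowest at 2.45% and 0.591%, followed by Pcdhgb5 at 3.01% and 0.607% and Pcdhga8 at 3.01% and 0.855%. Pcdhga4 was the highest alternate exon, at 8.90% and 2.51%. No 5hmC region lay in Pcdhga9 or Pcdhgb6.

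WGBS gains lay in 6 of the 18 alternate γ exons, and all of these started from a low Cre- level. Pcdhgb6 went from 23.0% to 33.4% over 33 of its 137 CpGs, although it met no 5hmC region. Pcdhga3 went from 27.3% to 37.5%, and Pcdhga6 from 25.4% to 33.7%. The smallest rises were those of Pcdhga12, from 35.5% to 41.9%, Pcdhga11, from 31.0% to 39.0%, and Pcdhgb7, from 27.7% to 36.0%. The Cre- levels of these exons, 23.0% to 35.5%, were below the 54.8% of long coding exons in other genes, and their rises of 6.33 to 10.4 points were below the 12.0 points there. By position, 2 of the first 9 and 4 of the last 9 alternate γ exons met a gain.

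**Figure D2:**
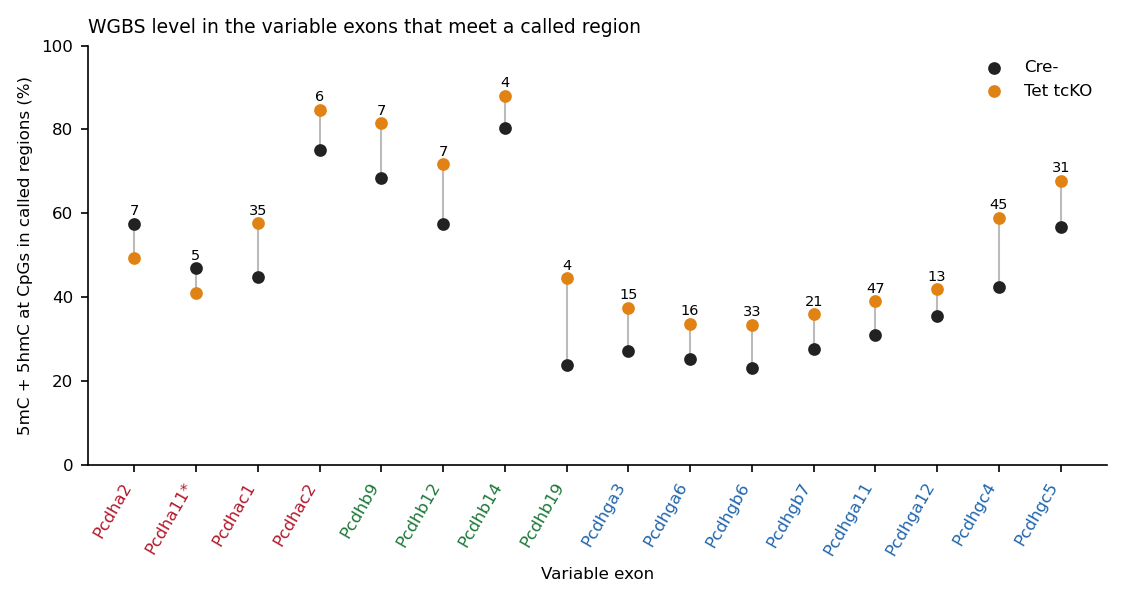
WGBS level (5mC + 5hmC, percent of cytosines, y axis) over the CpGs of a variable exon that lie in a called region, for the 16 exons that meet such a region (x axis, α in red, β in green, γ in blue). Black points are Cre- means, orange points are Tet tcKO means, and the number above a pair counts the CpGs. Pcdha2 and Pcdha11 (asterisk, ENSMUSG00000007440) are lower in Tet tcKO and the other 14 are higher.

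Of the 5 C-type exons, 4 had more 5hmC than any alternate exon of the same cluster and met a WGBS gain, and Pcdhgc3 did neither. Pcdhgc4, the γ gene on which neuronal survival is known to depend, had the highest 5hmC of all variable exons, at 17.2% in Cre- and 5.07% in Tet tcKO, and its WGBS level went from 42.5% to 59.0% over 45 CpGs. Pcdhac2, used by serotonergic neurons for axonal tiling, was at 14.2% and 2.86% for 5hmC and went from 75.1% to 84.7% in WGBS over 6 CpGs. Its 5hmC level covers 37 of its 138 CpGs and is the mean of a region of 3159 bp. Pcdhgc5 was at 14.0% and 4.52% for 5hmC, and every one of its 68 CpGs lay in the 5hmC loss. That loss is a region of 4656 bp and 124 CpGs that runs past the exon end, so its mean is not of the exon alone. Its WGBS level went from 56.8% to 67.8%.

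Pcdhac1 was at 8.56% and 1.93% for 5hmC and went from 44.8% to 57.6% in WGBS over 35 of its 74 CpGs. Pcdhgc3 differed from the other 4 C-type genes, with 5hmC of 5.96% and 1.10% over 39.6% of its CpGs and no WGBS region in the exon. A WGBS gain did lie 971 bp before its exon, at chr18:37804884-37805439, from 43.9% to 64.8% over 11 CpGs. In Cre-, the 5 C-type exons thus lay between 5.96% and 17.2% 5hmC. Pcdhgc3 fell within the range of the alternate γ exons, and the other 4 lay above the alternate exons of their own cluster. The C-type exons are also the least similar in sequence, with a median pairwise identity of 56.3% in their coding part against 76.6%, 73.7% and 69.3% among the alternate α, the β and the alternate γ exons.

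**Figure D3:**
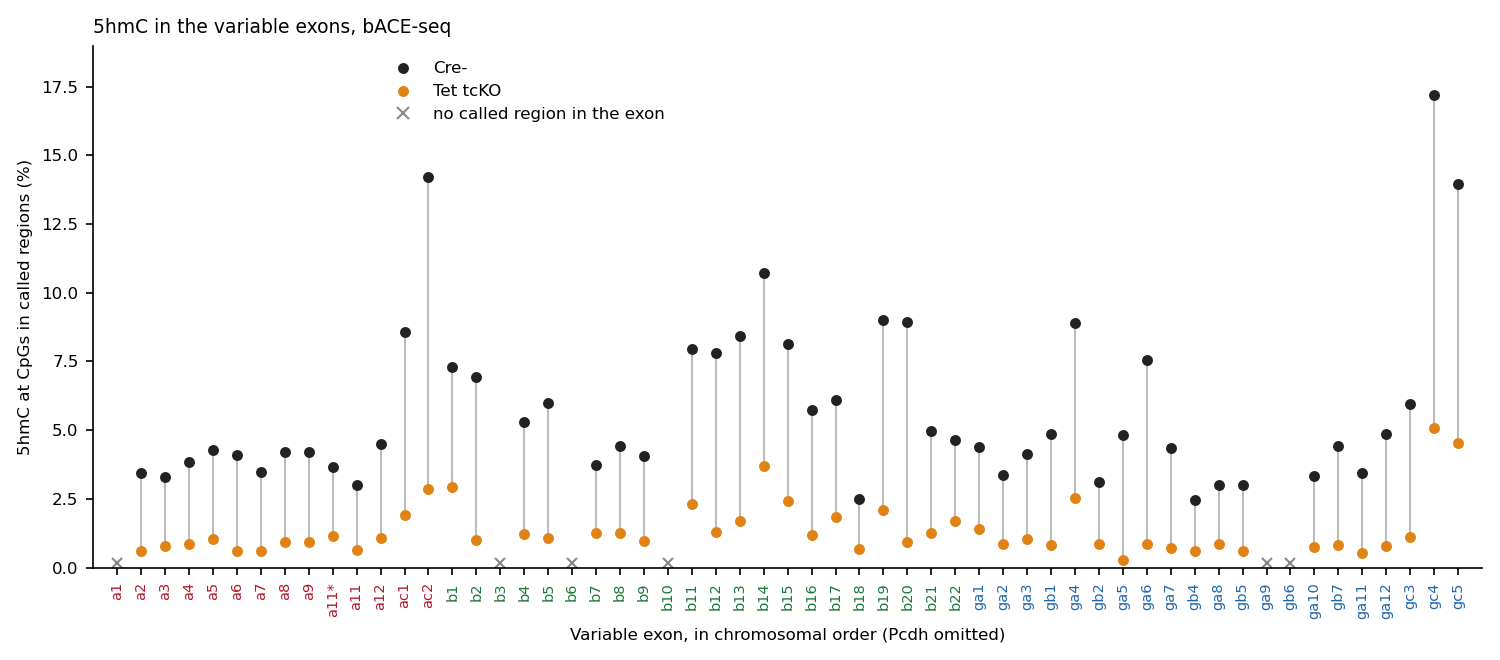
5hmC (percent of cytosines, y axis) over the CpGs of each of the 57 variable exons that lie in a called bACE-seq region, in chromosomal order (x axis, α in red, β in green, γ in blue; a11* is ENSMUSG00000007440). Black points are Cre- means, orange points are Tet tcKO means, and crosses mark the 6 exons with no called region. Most alternate α and γ exons lie below 5% in Cre-, and Pcdhac2, Pcdhgc4 and Pcdhgc5 lie highest.

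The constant exons, which code for the shared cytoplasmic tail, had more 5hmC at called CpGs than the variable exons. In α, 24 of 39 constant-exon CpGs lay in a 5hmC loss and went from 16.3% to 3.63%, against 4.95% and 1.06% in the variable exons. In γ, 21 of 45 constant-exon CpGs went from 19.7% to 4.70%, against 6.16% and 1.53%. The share kept was close between exon classes, 22.2% in constant and 21.5% in variable exons of α, and 23.9% and 24.9% in γ. With 1 percentage point subtracted in the same way, this closeness was lost, and the share kept was 17.2% in constant and 5.95% in variable exons of α, and 19.8% and 14.1% in γ. With 2 points subtracted it was 12.8% and 1.89% in α, and 15.3% and 11.7% in γ. The Tet tcKO means of the variable exons, 1.06% in α and 1.53% in γ, were themselves below 2 points. The Cre- order was the same in each cluster, with alternate variable exons lowest (3.99% in α, 4.09% in γ), C-type exons between (10.9% and 12.7%) and constant exons highest. CpG density differed too, at 4.63 CpGs per 100 bp in variable and 1.36 in constant exons of α, and 3.86 and 2.12 in γ. The part of density in the difference was not tested. Regions over constant exons reach into introns, and at the first α constant exon 3 CpGs take the mean of a region of 2597 bp. The first γ constant exon met no 5hmC region.

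For WGBS the exon classes could not be compared, because no called region overlapped a constant exon of either cluster. None of the 39 α and 45 γ constant-exon CpGs had a level. The introns between the constant exons, looked at after this was seen, did hold WGBS gains. In α they covered 24.9% of the 213 intronic CpGs, from 35.7% to 56.9%, and in γ 25.5% of 137, from 60.9% to 74.6%. The difference of 21.2 points in the α introns was larger than the 12.3 points in the α C-type exons, and the 13.7 points in the γ introns was close to the 14.3 points in the γ C-type exons.

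**Figure D4:**
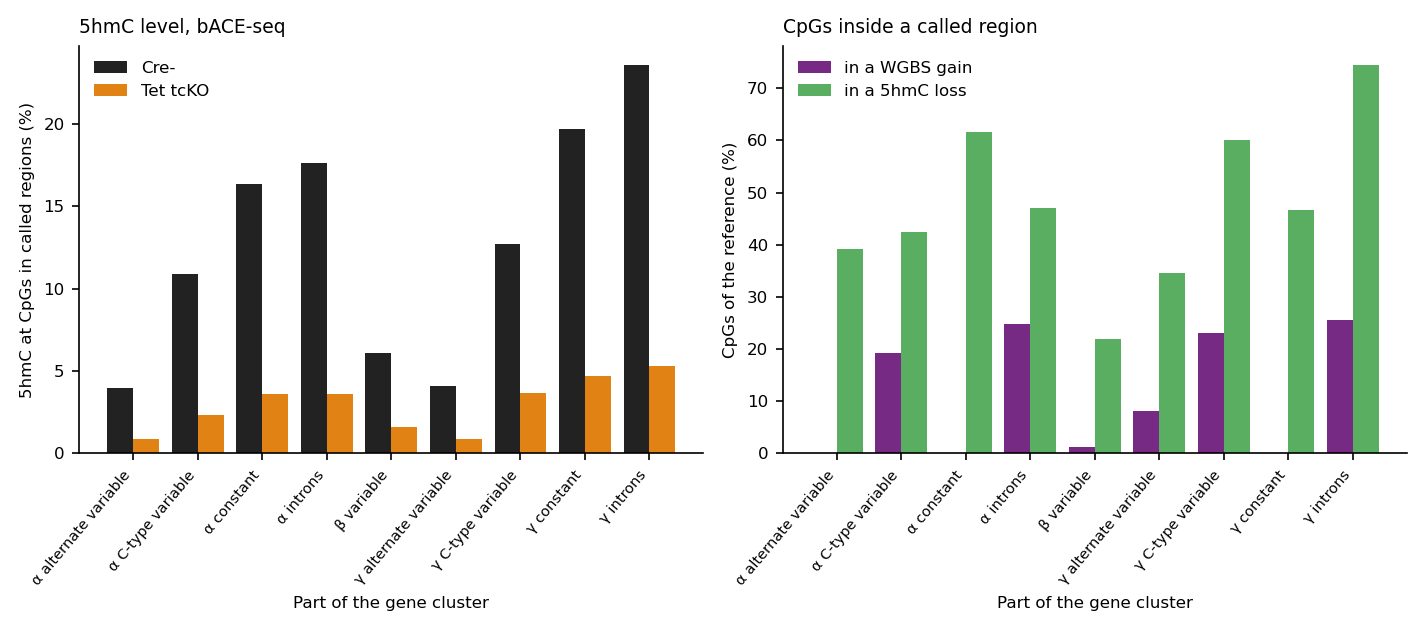
Left, mean 5hmC (percent of cytosines) over CpGs in called bACE-seq regions, by part of each cluster, for Cre- (black) and Tet tcKO (orange). Right, the percent of reference CpGs of each part that lie in a WGBS gain (purple) or a 5hmC loss (green). Bars are single group values without error, and the constant exons have a green bar but no purple bar.

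The regions with the highest 5hmC lay downstream of the alternate exons, a boundary chosen after the map of the clusters had been seen. Up to the end of Pcdha12, the 33 bACE-seq regions of α had a median Cre- level of 3.73%, with none at 15% or more. After it, the 26 regions had a median of 16.1%, with 14 at 15% or more and a lowest of 3.29%. The first regions after Pcdha12 were still low, at 4.04% and 3.29%, and the first high level, 16.5%, was at chr18:37079286-37079914 near Pcdhac1. In γ, the 50 regions up to the end of Pcdhga12 had a median of 4.09% and the 29 regions after it a median of 18.5%. At 15% or more were 1 region before and 21 after, and the lowest after was 5.34%. The share kept before and after was 21.4% and 19.9% in α and 21.0% and 23.2% in γ as deposited. With 1 percentage point subtracted from both groups it was 2.36% and 14.0% in α and 3.81% and 18.6% in γ. With 2 points it was 0.145% and 8.09% in α and 1.01% and 14.5% in γ. Levels below 0 were set to 0 here too. The deposited Tet tcKO mean before the boundary, 0.874% in α and 0.895% in γ, was already below 1 point.

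WGBS levels did not change across this boundary in the same way in both clusters. In α, 3 regions lay up to it, at 54.9% in Cre- and 52.8% in Tet tcKO, and 10, all higher in Tet tcKO, after it, at 48.0% and 64.5%. In γ, 11 regions lay up to it, at 28.6% and 37.7%, and 19 after it, at 53.0% and 67.6%. The highest 5hmC of the clusters was in this downstream part of γ, at chr18:37801613-37801918 between Pcdhga12 and Pcdhgc3, which went from 37.3% to 7.21%. The largest WGBS rise was in the downstream part of α, at chr18:37176498-37177988 in the intron before the last constant exon, from 40.5% to 68.3%. CpG density moved with the boundary, since the median bACE-seq region held 5.84 CpGs per 100 bp before it and 1.58 after it in α, and 5.35 and 1.49 in γ, and the part of density in the difference was not tested.

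CpGs in 5hmC losses, and in γ also those in WGBS gains, were more frequent just after the start of the alternate exons than just before it. The 5hmC losses covered 16.7% of α CpGs in the 250 bp before the start and 51.6% in the 250 bp after it. The corresponding values were 19.3% and 31.7% in β and 9.28% and 27.3% in γ. In β, WGBS gains covered 3.41% before the start and 9.90% after it. These β values come only from the regions that span the starts of Pcdhb12 and Pcdhb19. WGBS gains in γ covered 10.3% before the start, 26.7% in the 250 bp after it and 17.7% in the next 250 bp. They covered 13.8% between 500 and 749 bp, 0.508% between 750 and 999 bp and 10.1% between 1000 and 1249 bp. Farther upstream in γ the 5hmC losses were frequent again, at 39.7% from -2000 to -1751 bp. In α no CpG of the alternate exons lay in a WGBS gain, and the 2 upstream windows with a value, 20.0% and 4.35%, come from 1 region before Pcdha12, which went from 59.3% to 69.2%. Windows far from the start hold few CpGs, down to 12.

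**Figure D5:**
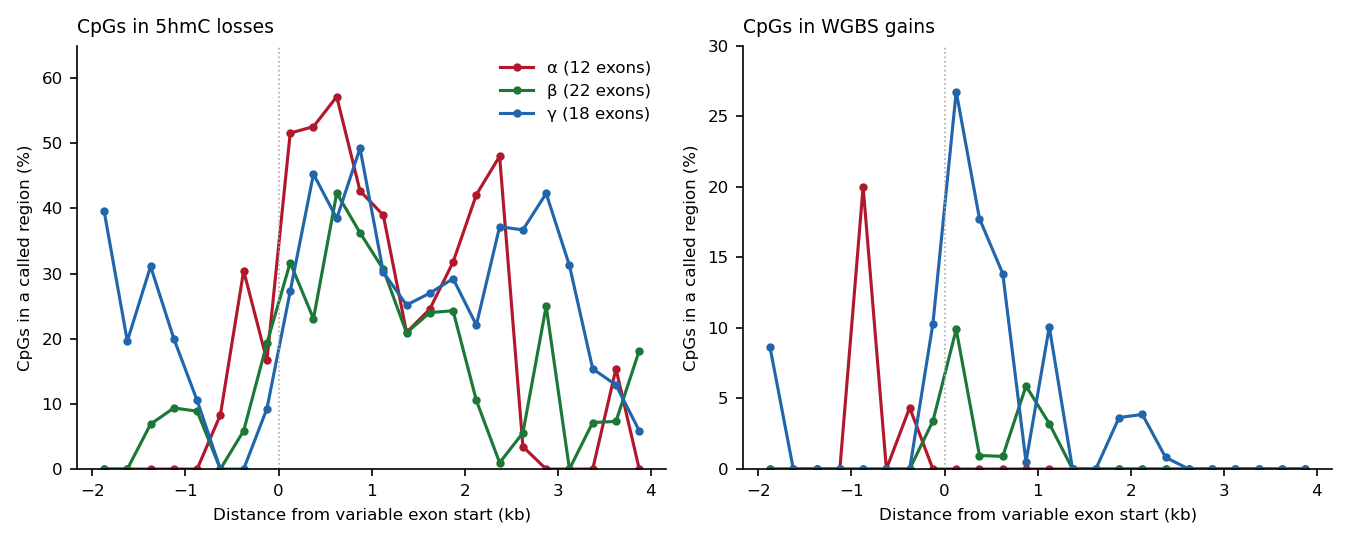
Percent of reference CpGs inside a 5hmC loss (left) or a WGBS gain (right) in windows of 250 bp (y axes), against distance from the start of the variable exon (kb, x axes), summed over the 12 alternate α, 22 β and 18 alternate γ exons. The dotted line marks the exon start. The γ line for WGBS gains is highest in the first window after the start (26.7%), and the α line stays at 0 within the exons.

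Regions at the members with 2 or more CpGs per 100 bp had lower 5hmC than list regions of like density, and CpG-poorer ones did not. Of the bACE-seq regions at members, 45.2% had a Cre- level under 5%, against 2.23% of the whole list. Dense regions had lower levels across the list as well, so regions of like density were set side by side. At 4 to 6 CpGs per 100 bp, the 37 member regions had a median Cre- level of 4.60% against 8.38% over the list, and 59.5% against 13.1% were under 5%. At 6 or more, the 48 member regions had a median of 3.29% against 6.67%. The medians were 5.09% against 9.88% at 3 to 4 CpGs per 100 bp (22 member regions) and 7.12% against 12.1% at 2 to 3 (25 member regions). The order was turned at 1 to 2 CpGs per 100 bp, 16.4% against 15.4%, and under 1 CpG per 100 bp, 23.1% against 17.9% with 12 member regions. Set by Cre- level instead, the share kept was 23.9% against 23.7% for regions under 5%, and 19.9% against 21.9% from 5% to 10%. It was 24.0% against 23.1% from 10% to 15%, 23.3% against 24.3% from 15% to 20%, and 20.4% against 24.8% at 20% or more. Of all reference CpGs, 34.4% lay in a 5hmC loss and 8.61% in a WGBS gain, beside 33.5% and 5.11% of variable-exon CpGs. In the long coding exons of other genes these shares were higher, at 55.3% and 12.8% of CpGs.

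At CpGs covered by both lists, the WGBS level minus the 5hmC level gives the part that is not 5hmC. At 228 such CpGs of γ this part was 33.5% in Cre- and 58.4% in Tet tcKO, while 5hmC made up 32.0% and 6.68% of modified cytosine. At 72 CpGs of α it was 42.0% and 62.4%, with 5hmC at 22.0% and 3.76% of modified cytosine. At 14 CpGs of β it was 55.3% and 75.4%. These CpGs were selected by being called in both assays, so the values do not describe the clusters as a whole. Among variable exons the highest 5hmC share of modified cytosine was that of Pcdhgc4, 40.5% in Cre- and 8.59% in Tet tcKO over 45 CpGs. There the 5hmC mean is that of a region of 73 CpGs and the WGBS mean that of a region of 45.

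The other gene lists met both kinds of region without exception. All 13 non-clustered protocadherins, among them Cdhr1 of photoreceptor outer segments, all 11 regulators of the clusters or of their methylation, and all 13 partners and signalling genes met a WGBS gain and a 5hmC loss, beside 70.6% and 85.3% of all protein-coding genes. The medians of CpGs in 5hmC losses were 33.8%, 38.1% and 43.8%, beside 36.0% for the median protein-coding gene. The medians of CpGs in WGBS gains were 8.14%, 7.08% and 4.42%, beside 5.61% for the median protein-coding gene and, over the pooled genes of each cluster, 3.68% in α, 1.21% in β and 11.2% in γ. A WGBS loss, met by 4.18% of all genes, lay at Pcdh15, a cadherin of hair cells and photoreceptors, and at Adam10, the protease that sheds γ-protocadherin ectodomains. The neighbouring gene Pcdh1 had 27.9% of its CpGs in WGBS gains, from 49.8% to 60.3%, and 5hmC of 15.7% in Cre-, of which 26.1% was kept. Ctcf was at 54.1% and 81.3% in WGBS, with 5hmC of 25.6% and 6.59%, and Smchd1, a repressor of the clusters, was at 67.1% and 86.7%, with 5hmC of 17.7% and 3.78%.

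Sequence shared by the members bears on how well reads can be placed. After in silico conversion of C to T, 42 of 57 variable exons held at least 1 window of 100 bp that recurs in another member, and in 9 of them, 7 of α and 2 of γ, over 10% of windows did. The highest share was 16.5%, in Pcdha11 (ENSMUSG00000102206). None of the C-type exons held such a window. The motif CGCT, a conserved core of many clustered protocadherin promoters, was searched on both strands from 250 bp before to 50 bp after the exon start and was found in 14 of 14 α, 21 of 22 β and 20 of 21 γ members, beside 61.8% of 32851 RefSeq promoter windows of that length. A match of 4 letters is a description of the window and not a site.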

How the data were processed

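Genomic DNA of P21 retinas was profiled by WGBS and bACE-seq, each with 3 libraries per genotype, grouped by label. Per the study's methods and processing notes, the authors trimmed reads (Trim Galore 0.4.4), aligned them to mm10 (Bismark 0.18.2), filtered alignments (SAMtools 1.15.1), removed duplicates (Picard, GATK 4.1.3), extracted CpG levels (MethylDackel 0.6.1), called regions with DSS after smoothing, and annotated them (ChIPseeker 1.36.0). The deposited means of each group are fractions of modified cytosines, printed here as percent. Whether these means are of smoothed levels was not checked. The number of CpGs per region is the authors' count. Their difference and area statistic columns hold the authors' comparison and were not used. The smallest listed region had 4 CpGs and 51 bp.

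Regions were joined to GENCODE M21 exons with Python 3.11.15, numpy 2.4.6 and pandas 2.3.3. An exon level is the mean, over reference CpGs in both the exon and a called region, of the region's group mean, and cluster levels weight regions by CpGs. The variable exon is the first coding exon, from its most upstream annotated start. Exon identity is from edit distance (edlib 1.3.9.post1). The level calculation was tested on simulated regions. No test was made, since the lists hold 1 mean per group.

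Members and gene lists were chosen with earlier results of these data known. Genes were named by a rule: every C-type gene, per cluster the 3 largest and 3 smallest WGBS changes, the 3 highest and 3 lowest Cre- 5hmC levels, every exon with a WGBS loss, and exons without a region, up to 10 per cluster. Single regions outside exons, and the genes named from the other lists, were chosen after their values were seen. A gene fixed in these lists is not reported here. Alternatives varied the region filter, flank, weighting, exon assignment, subtraction of unconverted cytosines and exclusion of recurring sequence. No sequence is printed here.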

Additional observations from a re-analysis of the deposited data

How the results depend on the processing

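The 19 values compared by setting gave 118 alternatives, of which 91 stayed within 1.5-fold of the value reported. The limit of 1.5-fold was used because no replicate spread exists. Only the WGBS changes could change sign, since counts, levels and shares cannot, and none did. Leaving out exons with recurring sequence could not alter the WGBS changes, because those exons met no WGBS region. It was not applied to the 5hmC values. With regions of at least 10 CpGs only, WGBS regions numbered 20 and bACE-seq regions 95, and the WGBS change of the α variable exons was 12.8 points, without the 2 losses. With differences of at least 0.1 only, there were 31 WGBS and 42 bACE-seq regions, Cre- 5hmC was 16.6% in α and 20.8% in γ, the α variable-exon change was 12.8 points, and 3.04% and 1.93% of variable-exon CpGs lay in WGBS gains and 5hmC losses. With at least 0.2, there were 9 and 5 regions, and 0.0720% and 0% of these CpGs. Equal weighting of regions gave 4.33 points for the α variable exons, and assignment by midpoint 11.7% of 5hmC kept in the α constant exons. Subtracting 1 percentage point of unconverted cytosines from both groups gave shares kept of 10.5% in α, 12.4% in β, 5.95% in α variable exons and 14.1% in γ variable exons. Levels below 0 after subtraction were set to 0. Subtracting 2 points gave 6.21% in α, 4.72% in β, 12.3% in γ, 1.89% and 12.8% in α variable and constant exons, and 11.7% and 15.3% in γ. Over the whole list, added after seeing the data with the sides of the last alternate exon, 19.1% and 14.1% were kept after subtracting 1 and 2 points. The near equality of the share kept between exon classes therefore depends on the 5hmC levels as deposited.

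The β cluster had no WGBS region of at least 10 CpGs and no bACE-seq region that differed by at least 0.1, and the constant exons had no WGBS value under any planned setting. The constant exons with their introns were added after seeing the data. No paired analysis was possible because the lists hold 1 mean per group. Depth is unknown.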

Other observations

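Pcdhgb8, the polymorphic pseudogene between Pcdhga11 and Pcdhga12, carried the same kinds of region as the alternate γ exons. The WGBS region chr18:37761841-37762318 was at 35.0% in Cre- and 46.8% in Tet tcKO over 21 CpGs, and the bACE-seq region chr18:37761802-37762571 was at 4.57% and 0.849% over 28 CpGs.

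Between Pcdhb1 and Pcdhb2, more than 1 kb from either gene, the region chr18:37285299-37285505 was lower in Tet tcKO in WGBS, at 79.3% and 63.4% over 11 CpGs. Downstream of the γ constant exons, within Diaph1, 2 of 6 WGBS gains were larger than the largest at a γ member, which was 27.2 points. The region chr18:37851015-37851910 went from 26.5% to 58.2%, 31.8 points, and chr18:37852711-37853615 went from 43.3% to 72.0%, 28.7 points. These regions were picked after their values were seen.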
